A study of Homo sapiens with 12 samples.

Results

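The replication-dependent histone genes were examined in RNA sequencing counts from A375 cells, an established human melanoma line that carries mutant BRAF. The members are the protein-coding canonical histone genes of the clusters on chromosomes 1 and 6, found by their older symbols (HIST1H, HIST2H or HIST3H with a suffix). There were 70 of them among the 58347 genes in the files. They comprised 6 genes for the linker histone H1, 17 for H2A, 18 for H2B, 15 for H3 and 14 for H4. The cluster on chromosome 6 (HIST1, GRCh38 chr6:25726132-27893843) holds 55 and the clusters on chromosome 1 hold 15, of which 12 belong to HIST2 and 3 to HIST3. The 12 libraries form 4 groups of 3 replicates, all of the same cell line and harvested after 8 h: cells given DMSO, the vehicle; tretinoin, a retinoid that activates the retinoic acid receptors; vemurafenib, an inhibitor of mutant BRAF; or both drugs together, called the combination. The labels give 5 µM as the dose in each of the 4 groups, also for the vehicle. The labels say that treatments were applied in triplicate and do not say whether these were separate cultures, so that p-values measure the spread between these libraries, which may be technical. Results from 1 cell line, at 1 time and dose, describe that line.

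Canonical histones package newly made DNA, and their genes are transcribed mainly in S phase. Their mRNAs have no introns and normally carry no poly(A) tail. They end a few bases after a conserved stem-loop that is bound by the stem-loop binding protein SLBP, and U7 snRNP guides the cut. Some of the same genes also give longer, polyadenylated transcripts that run past the stem-loop, which are known from cells that have left the cell cycle or are differentiating. The libraries of the study were made from poly(A)-selected RNA, so that a count here reflects histone mRNA that passed this selection, and the total histone mRNA of the cells was not measured. In bulk RNA, a change in the number of cells in S phase and a change in the mRNA per cell cannot be told apart.

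The stem-loop is the sequence that sets these mRNAs apart. The search required a stem of 6 bases, opening with GG and pairing without mismatch, around a loop of 4 bases. Stems with another opening were not searched. Such a stem-loop was found once in the annotated transcripts of 30 members, and it came in 5 forms. Among the other 40, 35 have no annotated exon after the stop codon in GENCODE 29, so the place where the stem-loop would lie is not in the annotation. Over 28 members the stem-loop began between 22 and 67 bases after the stop codon (median 35.5). One member is shown here for each form, with the stem and loop in capitals and 5 bases on either side, read 5′ to 3′ from the GENCODE 29 transcripts. HIST1H2AC (chr6:26124669-26124684, plus strand) has the form held by 17 members. HIST1H3G (chr6:26270923-26270938, minus strand) has the form of 5 members, with a different base in the loop. HIST1H4J (chr6:27824459-27824474, plus strand) and HIST2H4A (chr1:149833032-149833047, plus strand) have the forms of 4 and 3 members, all of them H4 genes. HIST1H3E (chr6:26225596-26225611, plus strand) was the single gene with the last form.
HIST1H2AC: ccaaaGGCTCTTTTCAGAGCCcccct
HIST1H3G: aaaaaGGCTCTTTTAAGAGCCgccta
HIST1H4J: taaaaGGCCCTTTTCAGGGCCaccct
HIST2H4A: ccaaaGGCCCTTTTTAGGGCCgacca
HIST1H3E: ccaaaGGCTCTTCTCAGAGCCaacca

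The promoters are shown because members of different classes rose together (described further on). RefSeq promoters (GRCh38.p14, 250 bases before to 50 after the start) were matched for 65 members by symbol, 4 of which have more than 1, giving 69 promoters, and 3 motifs were searched on both strands: CCAAT, the TATA box TATAAA, and the octamer ATTTGCAT, none of which contains another. CCAAT was in 87.0% of the members' promoters and in 34.6% of all 35116 promoters. It was in all promoters of the H1, H2A, H2B and H3 genes and in 25.0% of those of the H4 genes. TATAAA was in 66.7% against 11.5% of all promoters. The octamer, which is bound by OCT1, was in 39.1% against 1.8%. It lay in 68.8% of the H2A, 75.0% of the H2B and 6.7% of the H3 promoters and in none of the H1 or H4 promoters. The promoters are not all separate DNA. Those of head-to-head genes can overlap, as for HIST1H2BC (chr6:26123877-26124176) and HIST1H2AC (chr6:26123922-26124221), so that a motif can be counted for both. HIST1H2BD and HIST1H2BK each have more than 1 promoter, a few bases apart, counted separately. The 250 bases before the start are printed for the member of each class with the largest fitted rise in the combination that has a RefSeq promoter, with these motifs in capitals and on the strand of the gene: HIST1H1B (chr6:27867589-27867838, minus strand), HIST1H2AL (chr6:27865067-27865316, plus strand), HIST1H2BI (chr6:26272681-26272930, plus strand), HIST1H3B (chr6:26032100-26032349, minus strand) and HIST1H4L (chr6:27873535-27873784, minus strand). A motif match is a description of the letters, not a binding site.
HIST1H1B: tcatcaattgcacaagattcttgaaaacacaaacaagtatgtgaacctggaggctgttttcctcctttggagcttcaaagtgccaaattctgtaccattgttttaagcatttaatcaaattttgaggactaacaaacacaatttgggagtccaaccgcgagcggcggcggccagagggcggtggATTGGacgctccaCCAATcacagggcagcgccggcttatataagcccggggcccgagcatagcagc
HIST1H2AL: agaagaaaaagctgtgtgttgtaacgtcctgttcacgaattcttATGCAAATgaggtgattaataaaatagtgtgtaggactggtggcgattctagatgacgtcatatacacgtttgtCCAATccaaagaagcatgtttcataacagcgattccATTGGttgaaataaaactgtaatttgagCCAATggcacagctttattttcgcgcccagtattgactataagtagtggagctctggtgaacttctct
HIST1H2BI: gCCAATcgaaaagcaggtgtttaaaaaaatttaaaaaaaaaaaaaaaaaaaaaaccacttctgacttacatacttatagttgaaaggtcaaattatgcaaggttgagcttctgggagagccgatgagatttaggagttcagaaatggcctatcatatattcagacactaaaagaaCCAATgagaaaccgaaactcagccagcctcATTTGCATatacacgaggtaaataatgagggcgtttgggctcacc
HIST1H3B: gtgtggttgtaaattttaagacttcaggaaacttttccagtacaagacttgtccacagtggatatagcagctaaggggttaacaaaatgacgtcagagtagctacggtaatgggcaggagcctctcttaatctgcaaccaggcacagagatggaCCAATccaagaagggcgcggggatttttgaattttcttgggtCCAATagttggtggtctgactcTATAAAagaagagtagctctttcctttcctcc
HIST1H4L: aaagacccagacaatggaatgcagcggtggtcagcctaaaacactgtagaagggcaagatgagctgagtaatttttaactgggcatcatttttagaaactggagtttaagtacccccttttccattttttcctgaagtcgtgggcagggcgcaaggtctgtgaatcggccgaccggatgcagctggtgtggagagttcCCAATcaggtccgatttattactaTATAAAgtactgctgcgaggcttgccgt

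The way fragments were counted bears on the members. The authors counted fragments over the union of each gene's exons without using the strand, and dropped fragments that touched more than 1 gene. HIST1H2AA, HIST1H2AD, HIST1H2AK, HIST1H3D and HIST2H3PS2 were listed at 0 in all 12 libraries. The exons of the last 4 of these lie almost wholly (at least 98% of their bases) within another annotated gene, so that a count of 0 says little about them. In all, 11 members never exceeded 3 counts, and 20 had at least 10 counts in every library. For 21 members, another gene matched over 150 bases or more (98% identity as the minimum), and the counts of the copies HIST2H2AA3 and HIST2H2AA4, HIST2H3A and HIST2H3C, HIST2H4A and HIST2H4B, and HIST1H4J and HIST1H4K were nearly equal in every library. Each such pair is best read as 1 measurement.

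Filtering for low counts left 16740 genes, 54 of them members. The other 16 are HIST2H3D, HIST2H2AB, HIST1H4D, HIST1H4F and HIST1H2BM, which reached between 7 and 13 counts in their highest library, and the 11 that never exceeded 3. Total counts were between 13510235 and 21534377 per library. The labels were checked against genes that the drugs are known to move. DUSP6, a feedback target of the BRAF pathway, was at 115 to 134 CPM (counts scaled by library size after TMM normalization) in the DMSO and tretinoin libraries and at 1.40 to 2.31 in the vemurafenib and combination libraries. DHRS3, a retinoid target, was at 18.6 to 24.4 CPM with DMSO and at 143, 159 and 166 with tretinoin. Replicate 1 of tretinoin was thus near the others for this gene. DHRS3 was also above DMSO with vemurafenib alone, at 67.8 to 71.5 CPM, and was at 393 to 407 with the combination. Of the 10 melanocytic markers listed, 6 had a mean of at least 1 CPM, and SOX10 was at 0 in every library. Whether another annotated gene overlaps SOX10 was not examined, so its 0 does not show that the gene was silent. The 10 genes that mark other cell types, none at 0 throughout and 4 with a mean of at least 1 CPM, summed to 14.6 to 21.3 CPM with DMSO, 16.1 to 19.0 with tretinoin, 35.4 to 38.5 with vemurafenib and 32.4 to 43.4 with the combination. Their part in the histone results was not tested.

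One library stands apart for the histone genes. The summed histone counts were 68.2, 73.2 and 71.4 CPM in the DMSO replicates, and 75.5 in replicate 1 of tretinoin against 169 and 150 in replicates 2 and 3. Replicate 1 was the lowest of its group for 48 of the 54 tested members and did not exceed the highest DMSO library for 34. These counts were not made over all genes, so they do not show a trait of the histone genes in particular. Replicate 1 also differed from both other tretinoin libraries across all genes, and it had the lowest total count. Its chi-square per degree of freedom was 20.06 and 22.96 against replicates 2 and 3. Between replicates 2 and 3 it was 2.62, the lowest value within any group. It was 5.1 to 6.7 between DMSO libraries and 2.75 to 4.05 between vemurafenib libraries. Replicate 1 of the combination was at 9.17 and 8.20 against replicates 2 and 3, which were at 4.22. Fitted fold changes of named members with tretinoin, and counts of members called in comparisons with it, are therefore also given without replicate 1 of tretinoin.

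**Figure D1:**
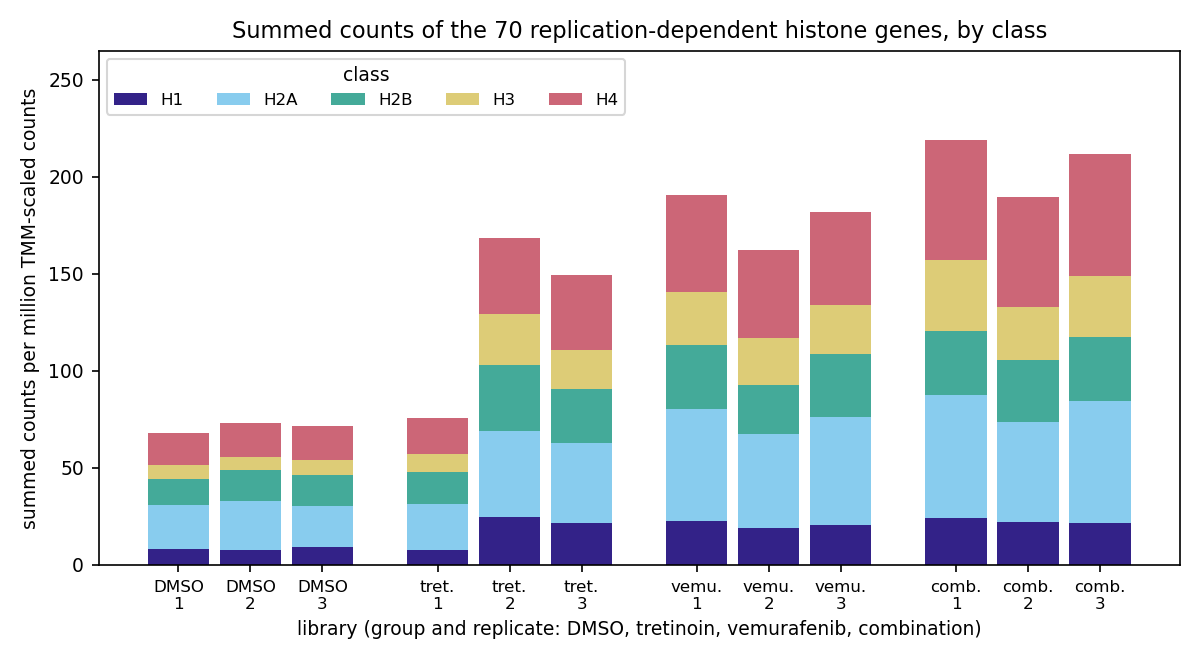
Summed counts of the 70 histone genes per library (x axis, 12 libraries in 4 groups), in TMM-scaled CPM (y axis), with the 5 histone classes stacked. The DMSO libraries and replicate 1 of tretinoin lie between 68.2 and 75.5, and the other 8 libraries lie between 150 and 219.

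The first comparison asks what vemurafenib alone did to these genes. Histone counts rose in all 5 classes. Of 54 tested members, 47 rose and none fell (edgeR quasi-likelihood test, Benjamini-Hochberg adjusted p below 0.05), against 26.4% of all tested genes higher and 26.3% lower. The median log2 fold change was 1.73 for the members, or 1.65 with HIST1H4L set at its lower bound (below), and 0.02 for all tested genes. In 46 members all 3 vemurafenib libraries lay above all 3 DMSO libraries, which was so for 30.9% of all genes. The summed counts were 191, 162 and 182 CPM, a mean of 178 ± 14.6 (SD, n = 3) against 71.0 ± 2.52 with DMSO, which is a log2 ratio of 1.33. By class, the summed level was 3.60 times that of DMSO for H3, 2.75 for H4, 2.5 for H1, 2.33 for H2A and 2.01 for H2B. All 4 tested H1 genes and all 11 tested H4 genes rose, as did 11 of 12 H2A, 11 of 16 H2B and 10 of 11 H3 genes.

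The combination gave nearly the same picture. Of the 54 members, 48 rose and none fell, where 27.1% of all tested genes were higher and 26.5% lower. The median log2 fold change was 1.88, or 1.86 with HIST1H4L at its bound. All 47 members called with vemurafenib were called again, and HIST2H2BE, an H2B gene, was called in addition. The groups did not overlap for 47 members, against 30.9% of all genes. Summed counts were 219, 190 and 212 CPM (207 ± 15.3, SD, n = 3), a log2 ratio to DMSO of 1.54. The ratio was 4.44 for H3 and 3.49 for H4, and 2.15 for H2B. These comparisons use the same 3 DMSO libraries, so they are not independent of each other.

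Tretinoin alone also raised histone counts, but the extent depended on replicate 1. With all libraries 26 members rose and none fell, where 3.48% of all tested genes were higher and 2.2% lower. All 26 were also called with vemurafenib. The median log2 fold change was 1.5, or 1.48 with HIST1H4L at its bound. Without replicate 1, 40 members rose and none fell, the first 26 among them, where 3.06% of all genes tested in that fit were higher, and the median was 1.82. Replicates 2 and 3 both lay above every DMSO library for 47 members, as they did for 15.6% of all genes, and with replicate 1 included 20 did not overlap with DMSO (11.3% of all genes). The summed counts averaged 131 ± 49.2 CPM (SD, n = 3), a log2 ratio of 0.89, which became 1.165 without replicate 1. The count of calls was sensitive to other libraries too, with 6 members called without DMSO replicate 2, 7 without tretinoin replicate 2, 12 without DMSO replicate 1 and 15 without DMSO replicate 3. Calls over all genes fell as well. In the same order 273 of 17206, 400 of 17176, 454 of 17188 and 443 of 17173 genes were higher, against 583 of 16740 with all libraries. The members' median log2 fold changes were 1.364, 1.168, 1.451 and 1.577. When the 6 libraries of these 2 groups were fitted alone, 4 of 39 tested members were called, and 234 of 15163 genes were higher.

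**Figure D2:**
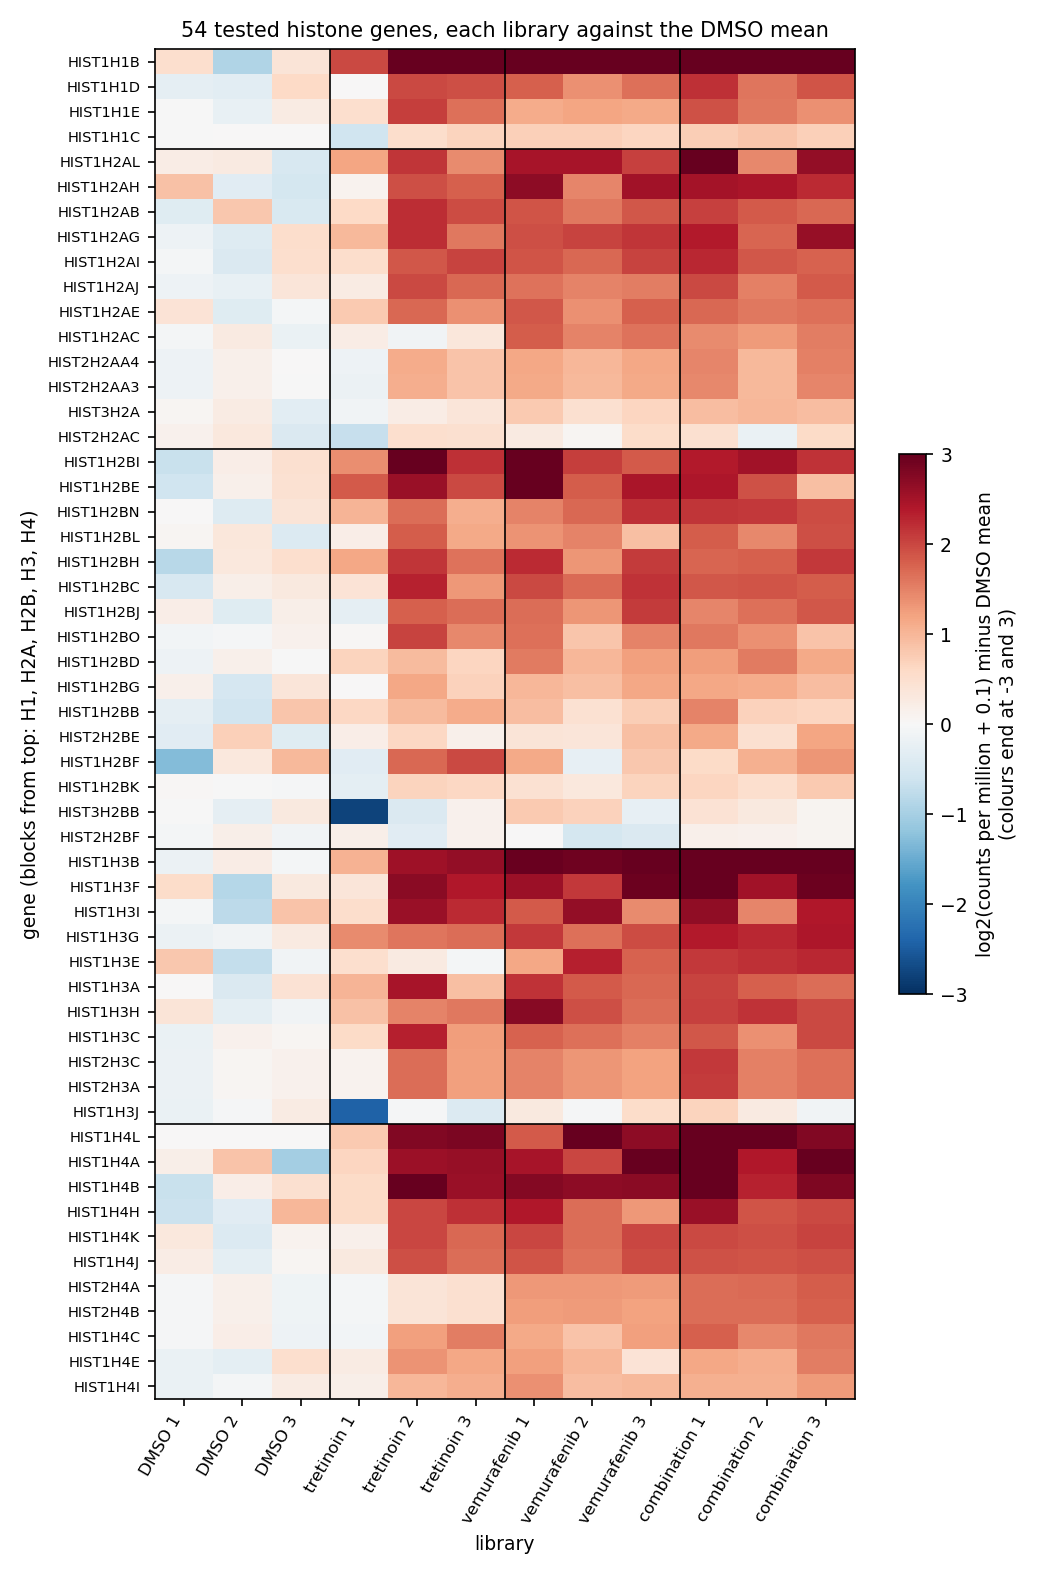
Each tested histone gene (y axis, 54 genes, blocks by class) in each library (x axis), coloured by log2(CPM + 0.1) minus the gene's DMSO mean. Most genes are above DMSO in the vemurafenib and combination libraries and in replicates 2 and 3 of tretinoin, while replicate 1 of tretinoin is not above the highest DMSO library for 34 genes.

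Among the linker histones, HIST1H1B (chr6:27866849-27867529, minus strand, 1 exon), which codes for H1.5, changed most. It was at 0.516, 0.135 and 0.475 CPM with DMSO, 7.06, 4.33 and 6.07 with vemurafenib, and 5.89, 5.30 and 5.52 with the combination. The treated libraries were far above the control with no overlap. The log2 fold change was 3.89 ± 0.51 (SE, adjusted p = 5e-06) with vemurafenib and 3.83 ± 0.51 (adjusted p = 5.7e-06) with the combination. In tretinoin it was at 1.61, 7.90 and 5.15 CPM, all above DMSO, with a log2 fold change of 3.68 ± 0.52 (adjusted p = 0.00027), or 4.05 ± 0.33 without replicate 1. HIST1H1E, which codes for H1.4, rose with tretinoin by 1.64 ± 0.33 (adjusted p = 0.0067; 1.94 ± 0.25 without replicate 1), with vemurafenib by 1.18 ± 0.34 and with the combination by 1.68 ± 0.32. HIST1H1C, which codes for H1.2, was the H1 gene with the highest level per kb of exon at 9.13 CPM per kb with DMSO, against 0.551 for HIST1H1B. It was at 5.80, 5.88 and 5.91 CPM with DMSO and 9.25 to 9.71 with vemurafenib, a log2 fold change of 0.70 ± 0.20 (adjusted p = 0.0072). With tretinoin its 3 libraries, at 3.81, 8.49 and 9.42 CPM, lay on both sides of DMSO. Its log2 fold change was 0.33 ± 0.21 (adjusted p = 0.36) with all 3, and 0.61 ± 0.13 (adjusted p = 0.004) without replicate 1. HIST1H1A and HIST1H1T, the latter a testis gene, stayed at 3 counts or fewer.

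H2A and H2B form the dimers on the outside of the nucleosome core, and many of their genes lie head to head and share a promoter. HIST1H2AC (chr6:26124145-26139116, plus strand) was the H2A gene with the smallest adjusted p with vemurafenib. It was at 3.55, 4.46 and 3.22 CPM with DMSO, 4.33, 3.43 and 4.71 with tretinoin, 13.35, 10.54 and 11.66 with vemurafenib, and 10.014, 9.152 and 11.001 with the combination. The tretinoin libraries overlapped with DMSO and the other 6 did not. Its log2 fold change was 1.67 ± 0.15 (adjusted p = 8e-08) with vemurafenib, 0.16 ± 0.18 (adjusted p = 0.63) with tretinoin, and 0.14 ± 0.20 without replicate 1 of tretinoin. HIST3H2A (chr1:228456979-228457873, minus strand) gave the largest share of all histone counts with DMSO, at 5.91 to 8.71 CPM, and rose by 0.64 ± 0.14 (adjusted p = 0.0012) with vemurafenib and 0.95 ± 0.14 (adjusted p = 2.1e-05) with the combination. The identical copies HIST2H2AA3 and HIST2H2AA4 rose by 1.10 and 1.12 with vemurafenib and by 1.33 and 1.35 with the combination. For HIST2H2AC the log2 fold changes were 0.31 and 0.33, and it was called in neither comparison.

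HIST1H2AL and HIST1H2BE rose from very few counts. HIST1H2AL had 2 counts in the 3 DMSO libraries together and 35 and 44 in the vemurafenib and combination libraries, ratios of 15.2 (exact 95% interval 3.91 to 131) and 17.5 (4.58 to 149) that cover counting error only. HIST1H2BE had 3 counts with DMSO and 44 with vemurafenib, a ratio of 12.7 (4.09 to 64.2). An antisense gene covers 28.2% of the HIST1H2BE exons, and fragments in that stretch were left out of the count. HIST1H2BK (chr6:27146418-27146798, minus strand) had the highest level per kb of exon of all members, 15.3 CPM per kb with DMSO and 24.1 with the combination. GENCODE 29 gives it coding sequence alone, and with a longer exon the level per kb would be lower. A near-identical gene, H2BFS, matches it over 381 bases. It rose by 0.66 ± 0.18 with the combination (adjusted p = 0.0057) and by 0.49 ± 0.19 with vemurafenib (adjusted p = 0.036), and the latter adjusted p ranged from 0.069 to 0.14 when DMSO replicate 1, 2 or 3 or vemurafenib replicate 1 or 3 was left out. Of the 7 members not called with vemurafenib, 5 are H2B genes (HIST1H2BB, HIST1H2BF, HIST2H2BE, HIST2H2BF and HIST3H2BB), beside HIST1H3J and HIST2H2AC. HIST2H2BF had the lowest log2 fold change, at -0.31 with vemurafenib and 0.12 with the combination, from 1.37 to 1.69 CPM with DMSO, and 5.5% of its exons overlap another gene on the opposite strand.

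Partners of a divergent pair had different fold changes in some pairs. HIST1H2BL and HIST1H2AI, 267 bases apart, rose by 2.08 and 2.01 on the log2 scale with the combination. HIST1H2BK and HIST1H2AH, 330 bases apart, had log2 fold changes of 0.66 and 2.68. The pairs HIST2H2BE with HIST2H2AC and HIST3H2A with HIST3H2BB, both on chromosome 1, were low on both sides, at 0.94 and 0.33 and at 0.95 and 0.27. Whether partners differ was not tested.

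H3 and H4 form the tetramer at the centre of the nucleosome. HIST1H3B (chr6:26031650-26032060, minus strand, 1 exon), which codes for H3.1, was at 0.387, 0.540 and 0.422 CPM with DMSO, 4.16, 3.99 and 5.23 with vemurafenib and 6.38, 4.97 and 6.02 with the combination. All treated libraries were above DMSO. The log2 fold change was 3.29 ± 0.36 (adjusted p = 6.8e-07) with vemurafenib and 3.67 ± 0.35 (adjusted p = 1e-07) with the combination. In tretinoin it was at 1.03, 3.08 and 3.29 CPM, a log2 fold change of 2.49 ± 0.40 (adjusted p = 0.00094), and replicate 1 was again the lowest. Without it the change was 2.81 ± 0.29. HIST1H3G rose by 1.76 ± 0.32 with tretinoin (adjusted p = 0.0027), and here replicate 1 was close to the others at 1.17, 1.34 and 1.42 CPM against 0.322 to 0.475 with DMSO. Without replicate 1 its change was 1.82 ± 0.37. HIST1H3E behaved otherwise. It was at 0.068 to 0.387 CPM with DMSO, 0.164 to 0.293 with tretinoin and 1.10 to 1.22 with the combination, a log2 fold change of 2.48 ± 0.48 (adjusted p = 0.0003) with the combination and 0.14 ± 0.67 (adjusted p = 0.93) with tretinoin, or -0.04 ± 0.77 without replicate 1. HIST1H3J did not pass the test, with log2 fold changes of 0.28 and 0.30, and 44.6% of its exons are shared with HIST1H2AM.

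All 11 tested H4 genes, which code for the same protein, rose with vemurafenib and with the combination. HIST1H4A was at 0.129, 0.270 and 0 CPM with DMSO and 1.65, 0.976 and 1.99 with the combination, a log2 fold change of 3.58 ± 0.67 (adjusted p = 0.00024). HIST1H4J was at 1.15 to 1.68 CPM with DMSO, 4.62 to 5.77 with vemurafenib, and 5.48 to 5.66 with the combination, where it rose by 1.95 ± 0.29 (adjusted p = 2.5e-05). With tretinoin it was at 1.76, 5.70 and 4.77 CPM, a log2 fold change of 1.53 ± 0.31 (adjusted p = 0.0069), or 1.85 ± 0.21 without replicate 1. HIST1H4K, its copy over 312 bases, had 4.52 CPM per kb with DMSO and 18.4 with the combination. HIST1H4L had no count in any DMSO library, 1, 10 and 11 with tretinoin, 5, 17 and 9 with vemurafenib and 13, 15 and 13 with the combination. Against a floor of 3 counts per DMSO library it was at least 2.27-fold, 2.92-fold and 3.61-fold higher.

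**Figure D3:**
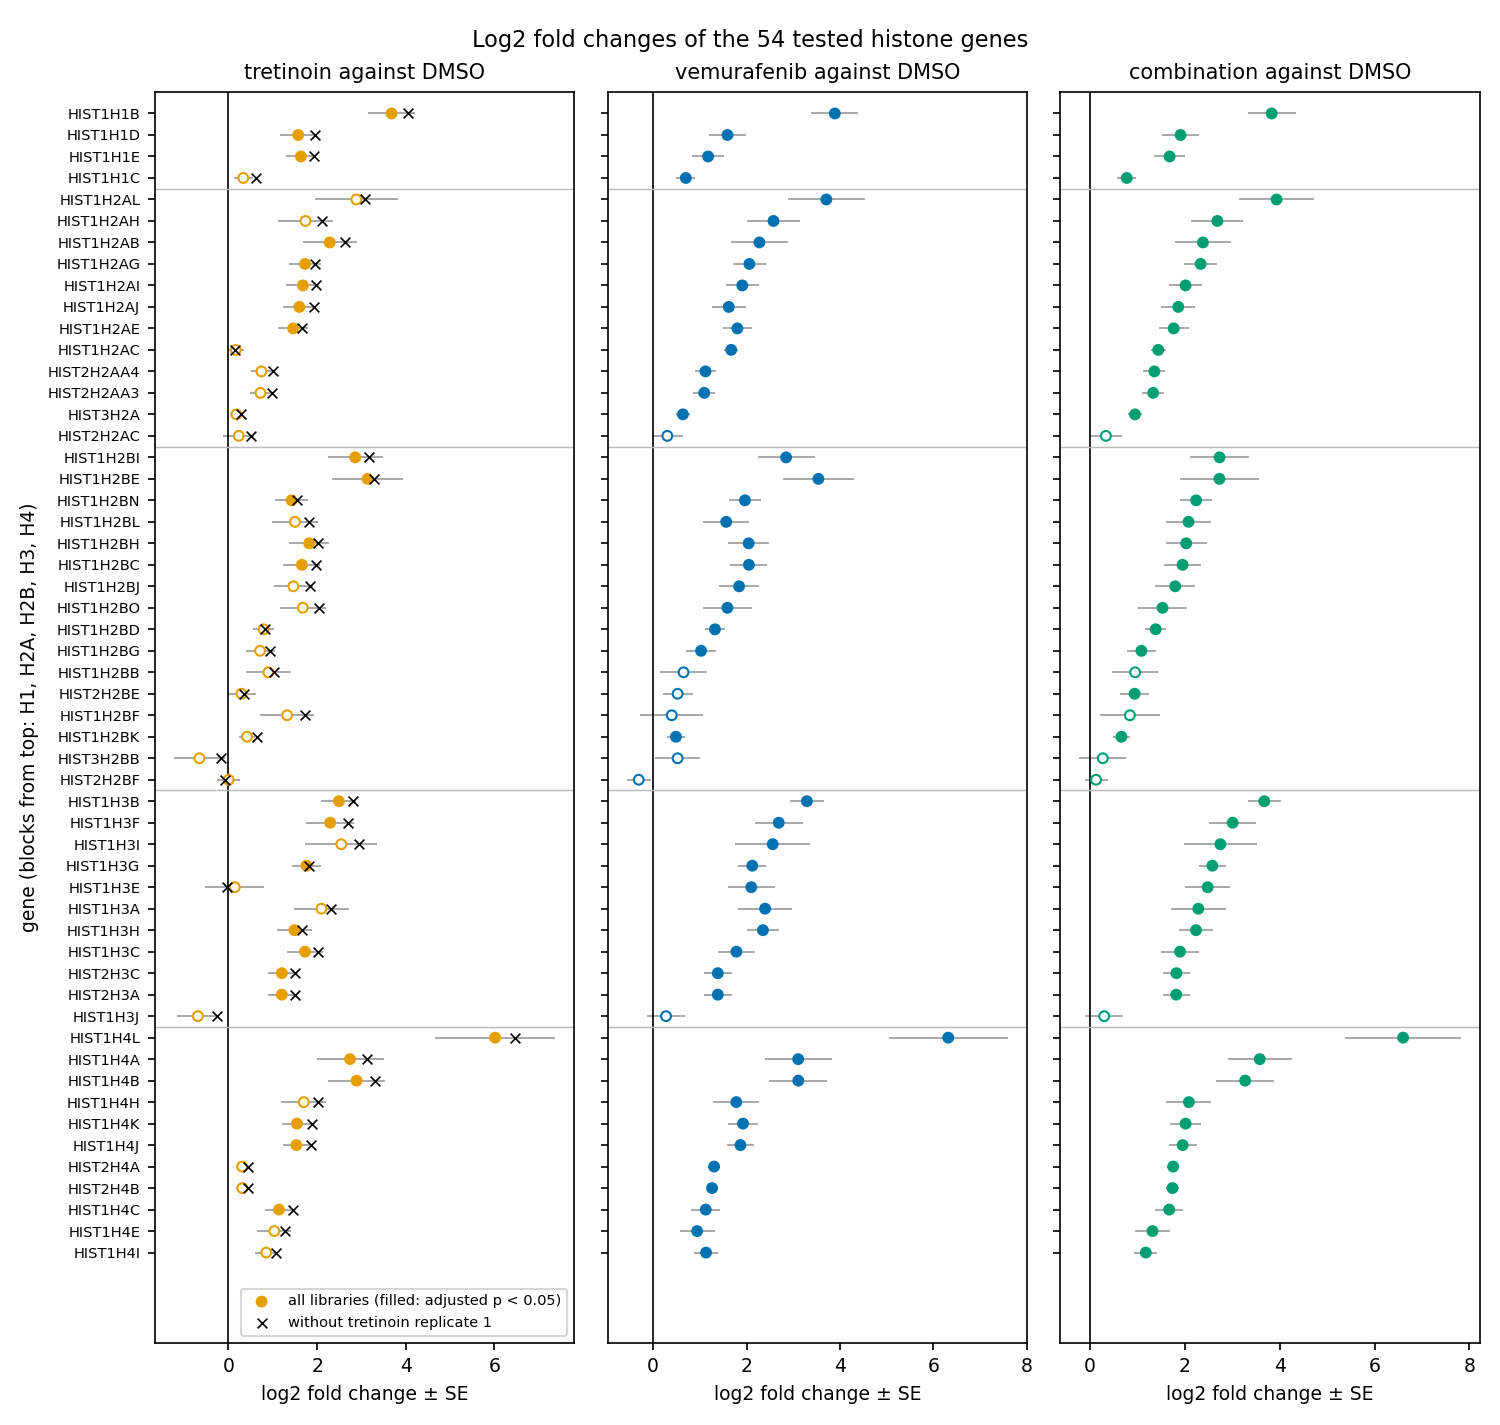
Log2 fold change against DMSO (x axis, bars ± SE) of each of the 54 tested histone genes (y axis, blocks by class) with tretinoin, vemurafenib and the combination, filled where the adjusted p is below 0.05. Crosses give tretinoin without replicate 1, where 40 genes were called instead of 26. The fitted value of HIST1H4L rests on DMSO libraries without a count and is not a measured fold.

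The next comparisons ask what the second drug added. Between the combination and vemurafenib, 2 members were higher and none lower, where 2.27% of all tested genes were higher and 2.2% lower. Both are the copies HIST2H4A and HIST2H4B, and so 1 measurement. HIST2H4A (chr1:149832659-149839767, plus strand) was at 4.83, 5.47 and 4.54 CPM with DMSO, 4.77, 6.45 and 6.90 with tretinoin, 12.31, 12.22 and 12.02 with vemurafenib, and 16.01, 16.12 and 17.66 with the combination. The combination libraries lay above all others. The log2 difference from vemurafenib was 0.45 (adjusted p = 0.023) for HIST2H4A and 0.47 (adjusted p = 0.019) for HIST2H4B. Neither was called when any vemurafenib library or combination replicate 2 or 3 was left out. The median over the 54 members was 0.21, against 0.00 for all genes, and 5 members had an unadjusted p below 0.05, as did 14.2% of all genes. Between the combination and tretinoin, 12 members were higher and none lower, where 24.1% of all genes were higher and 25% lower, so the members' share was not above the background. Without replicate 1 of tretinoin 8 members were higher, where 23.4% of all genes were. Without replicate 2 there were 20 members, where 3630 of 17176 genes were higher. The largest differences among them were 2.34 ± 0.47 for HIST1H3E (adjusted p = 0.00049), 1.44 ± 0.12 for HIST2H4A (adjusted p = 2.8e-08) and 1.28 ± 0.15 for HIST1H2AC (adjusted p = 2.2e-06). Without replicate 1 they were 2.52, 1.31 and 1.30, and all were called.

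The interaction of the drugs measures whether the combined change differs from the sum of the single changes on the log2 scale. It was negative, meaning a combined rise smaller than that sum, for 2 members, HIST1H1B at -3.74 ± 0.63 (adjusted p = 0.0069) and HIST1H3B at -2.11 ± 0.47 (adjusted p = 0.044). It was positive for none, where 0.382% of all genes had a positive and 0.424% a negative interaction. At an unadjusted p below 0.05 there were 32 members, against 15.6% of all genes. DESeq2 called 5 without shrinkage and 3 with a beta prior. Without replicate 1 of tretinoin 19 members had a negative interaction, all of them in HIST1, where 0.841% of all genes had one. The values were then -4.11 for HIST1H1B and -2.43 for HIST1H3B, and HIST1H1B was called in each fit that left out 1 library. HIST1H3B was lost when any library other than tretinoin replicate 1 was left out.

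Members that passed the test with vemurafenib and not with tretinoin were compared by the annotation of their transcript ends. With replicate 1 of tretinoin left out, 8 members were called with vemurafenib and not with tretinoin, and these were HIST1H2AC, HIST1H2AL, HIST1H2BD, HIST1H2BG, HIST1H3E, HIST2H4A, HIST2H4B and HIST3H2A. A missed call is not the lack of a rise, as HIST1H2AL had a log2 fold change of 3.08 (adjusted p = 0.069) in that fit, HIST1H2BG of 0.94 and HIST1H2BD of 0.83. Of the 8, 7 have at least 200 annotated exon bases after the stem-loop, as against 11 of the 39 members called with both drugs. These counts hold for the fit without replicate 1. With all 12 libraries, 21 members were called with vemurafenib and not with tretinoin. In that fit 18 of the 47 members called with vemurafenib have such bases, as do 8 of the 26 called with both. Members without a matched stem-loop were counted as lacking such bases, also those with no annotated exon after the stop codon. Among the 39, HIST1H2AG and HIST1H2BJ have 1827 and 569 exon bases after the stop codon but no matched stem-loop. The 11 is therefore a lower limit. The 7 include the copies HIST2H4A and HIST2H4B, and HIST1H2AL has no annotated stem-loop. Being called with 1 drug and not with another does not show a difference between drugs, and vemurafenib was not compared with tretinoin directly. Between the combination and tretinoin, HIST1H2AC, HIST1H2BD, HIST1H3E, HIST2H4A, HIST2H4B and HIST3H2A of these were among the 12 called. For the counts that follow, 27.1% of all tested genes rose with the combination, 26.4% with vemurafenib and 3.48% with tretinoin. Without replicate 1 of tretinoin, 3.06% of all genes tested rose with it. Over all members, 22 have such an extension and all 22 were tested. Of these 19 rose with the combination, with a median log2 fold change of 1.74. With vemurafenib 18 rose (median 1.35), and with tretinoin 8 (median 0.94). Without replicate 1 of tretinoin 12 rose, with a median of 1.17. Of the 35 members with no annotated exon after the stop codon 21 were tested. Of these 18 rose with the combination, 18 with vemurafenib and 11 with tretinoin. Their medians were 2.28, 2.28 and 1.74, or 2.01, 1.92 and 1.73 with HIST1H4L at its bound. Without replicate 1 of tretinoin 17 of the 21 rose with it, with a median of 2.11. Another 8 members have fewer than 200 exon bases after the stem-loop, and 7 of these were tested. All 7 rose with vemurafenib and with the combination, with medians of 1.8 and 1.95. With tretinoin 4 rose (median 1.5), or 7 without replicate 1 (median 1.81). The 22 members with the extension had the lowest median in each comparison. Exon length and count level move with this feature, and their part was not tested.

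The share of each gene in the histone counts shifted. With DMSO the 8 most counted members gave 56.3% of the sum, headed by HIST3H2A, HIST1H1C and HIST1H2BK. With vemurafenib the top 8 gave 45.2% and with the combination 45.8%, headed by HIST2H4A. H3 genes made up 10.0% of the sum with DMSO and 15.3% with the combination, and H2B genes 21.3% and 15.8%. These shares are descriptions of group means, and copies are counted in full.

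Most genes that make or handle histone mRNA fell with vemurafenib. Of all tested genes, 26.3% fell and 26.4% rose with vemurafenib, and 26.5% fell and 27.1% rose with the combination. Of 33 factors for histone transcription and processing, 22 fell and 2 rose with vemurafenib, while 19 fell and 2 rose in the combination. Their medians were -0.39 and -0.34 on the log2 scale. None was called with tretinoin, where the lowest and highest log2 fold changes were -0.45 and 0.33. SLBP was at 197 to 199 CPM with DMSO, 156 to 183 with tretinoin, 96.6 to 104 with vemurafenib and 98.7 to 109 with the combination. It fell by 0.97 with vemurafenib and by 0.94 with the combination on the log2 scale (adjusted p = 4.4e-09 and 5.6e-09). NPAT, the cyclin E-CDK2 target that activates histone transcription at the clusters, fell by 0.39 with vemurafenib (adjusted p = 0.029), and was at -0.24 with the combination (adjusted p = 0.16). CASP8AP2, a partner of NPAT and histone mRNA processing, was lower by 0.31 with vemurafenib and by 0.27 with the combination. Its libraries overlapped, at 24.6 to 33.0 CPM with DMSO, 20.8 to 25.0 with vemurafenib and 22.4 to 25.0 with the combination. CCNE1 and CDK2, which phosphorylate NPAT, fell by 1.16 and 1.12 with the combination. MIF4GD, which links SLBP to translation, rose by 0.66, and HINFP, a transcription factor for H4 genes, rose by 0.51.

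Most S-phase genes and histone chaperones fell as well. Of all tested genes, 26.3% fell and 26.4% rose with vemurafenib, and 26.5% fell and 27.1% rose with the combination. Of 32 S-phase genes 27 fell with vemurafenib and 25 with the combination, and none rose in either. With tretinoin none of the 32 was called in either direction, and their log2 fold changes lay between -0.28 and 0.24. E2F1, which drives S-phase genes, fell by 1.27 with the combination, UHRF1, which maintains DNA methylation, by 1.35, and MCM10, a replication factor, by 1.13. Of 24 histone chaperones and their partners 16 fell and none rose with either, among them CHAF1A, the large subunit of chromatin assembly factor 1, which fell by 0.815 with the combination. UBN1, of the HIRA complex, fell by 0.71 and IPO4, a histone importin, by 1.22. IPO4 was at a low level, with 0.528 to 0.743 CPM with DMSO and 0.22 to 0.279 with the combination. Among 18 G2/M genes, vemurafenib raised 6 and lowered 7, the combination raised 4 and lowered 7, and tretinoin lowered 5. With tretinoin 2.2% of all tested genes were lower. Whether the G2/M counts differ from the shares over all genes was not tested. CENPF, a kinetochore protein, KIF20A, a mitotic kinesin, and the cyclin CCNB2 rose by 0.41, 0.40 and 0.27 with the combination. CDC20, an activator of the anaphase-promoting complex, and the mitotic kinases AURKA and AURKB fell by 0.70, 0.42 and 0.33.

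The replication-independent histone genes, whose mRNAs are spliced or carry a poly(A) tail, did not rise as a group. Of all tested genes, vemurafenib raised 26.4% and lowered 26.3%, the combination raised 27.1% and lowered 26.5%, and tretinoin lowered 2.2%. Of 12 in this list, vemurafenib raised 2 and lowered 4, the combination raised 3 and lowered 5, and tretinoin lowered 1. The medians were -0.13, 0.02 and -0.18. The 3 that rose with the combination were H2AFJ by 1.27, H1F0 (H1.0) by 0.52 and H1FX by 0.22. H2AFX, the variant phosphorylated at DNA breaks, fell by 0.34, H3F3B (H3.3) by 0.41, and H3F3C by 0.75. H2AFJ was at 5.81 to 9.28 CPM with DMSO and 17.2 to 22.8 with the combination.

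**Figure D4:**
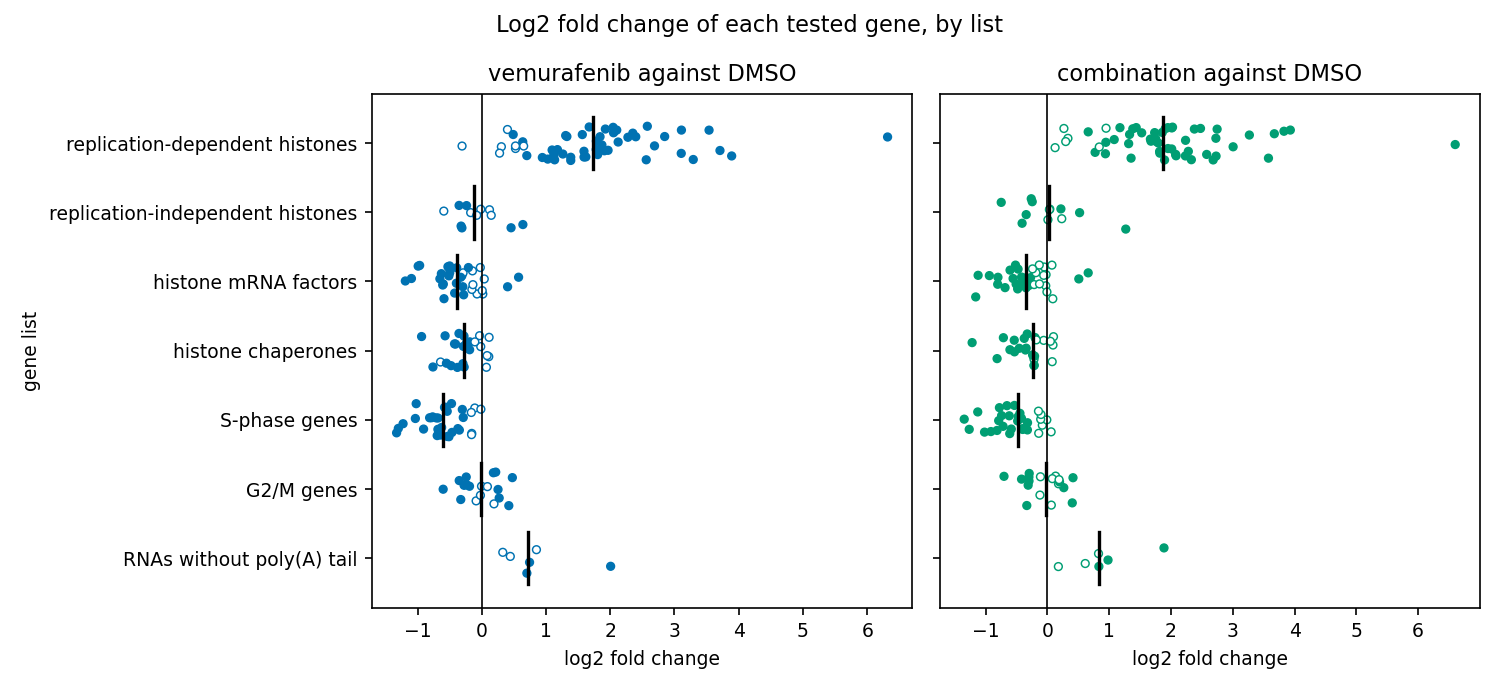
Log2 fold change (x axis) of each tested gene with vemurafenib and the combination against DMSO, by list (y axis), filled where the adjusted p is below 0.05, with the list's median as a bar. Most replication-dependent histone genes lie above 1, with medians of 1.73 and 1.88, and most S-phase genes and histone mRNA factors lie below 0.

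Some RNAs that normally lack a poly(A) tail rose along with the histone genes. Of 22 such RNAs 8 were listed at 0 throughout and 6 passed the filter. Of these, 3 rose with vemurafenib and with the combination, and 1 with tretinoin. The shares of all tested genes that rose were 26.4%, 27.1% and 3.48%. RN7SL2, the RNA of the signal recognition particle, was at 211, 228 and 212 CPM with DMSO, 211, 365 and 301 with tretinoin, 337, 332 and 421 with vemurafenib, and 449, 331 and 380 with the combination. Replicate 1 of tretinoin was within the DMSO range for RN7SL2. It was above every DMSO library for SNORA73B (3.01 against at most 1.74 CPM), for SNORD3A (18.0 against at most 17.1) and for the sum without RN7SL2 (25.1 against at most 22.4). RN7SL2 rose by 0.74 ± 0.15 with vemurafenib (adjusted p = 0.00047) and by 0.83 ± 0.15 with the combination (adjusted p = 0.00016), and was at 0.43 ± 0.15 with tretinoin (adjusted p = 0.1). SNORA73B rose by 1.36, 2.01 and 1.89 with tretinoin, vemurafenib and the combination, from 1.21 to 1.74 CPM with DMSO. SNORD3A (U3) rose by 0.70 with vemurafenib and 0.98 with the combination. Summed over the list, these RNAs were at 225 to 250 CPM with DMSO, 360 to 462 with vemurafenib and 365 to 490 with the combination, 1.68 and 1.80 times the DMSO mean, where the histone sum was 2.51 and 2.91 times that mean. The efficiency of poly(A) selection was not measured, and its part in the histone results was not tested.

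**Figure D5:**
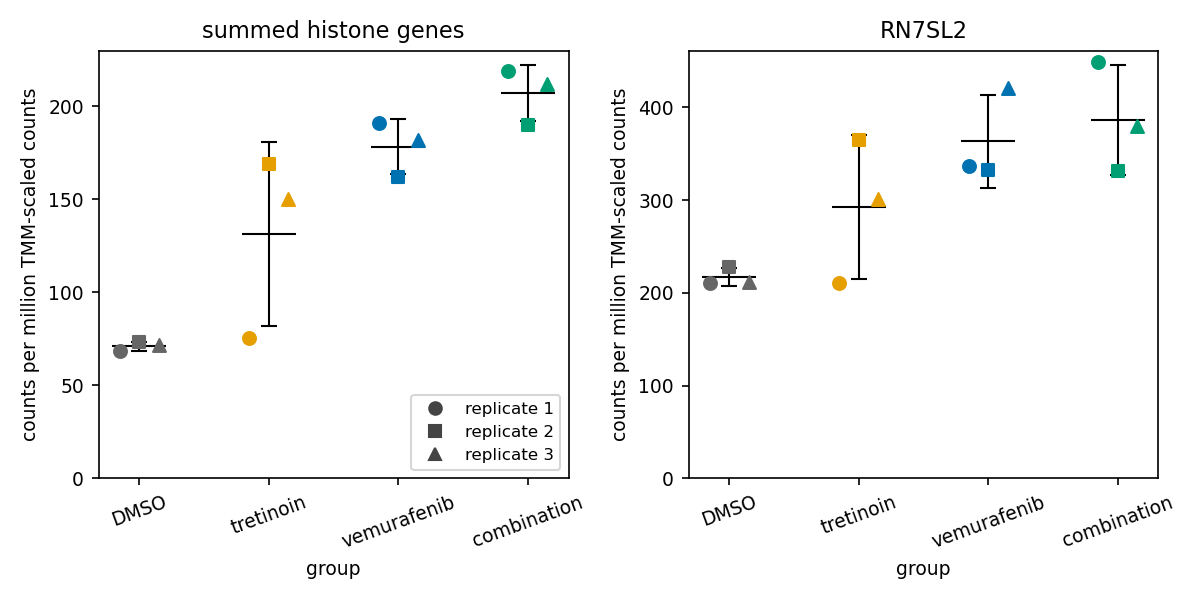
Summed histone counts (left) and RN7SL2 (right) in TMM-scaled CPM (y axes) by group (x axes), with 1 point per library and the mean ± SD of 3 replicates. In both, replicate 1 of tretinoin (75.5 and 211) lies near or within the DMSO libraries and away from the other tretinoin libraries, which was not so for SNORA73B and SNORD3A (not plotted).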

How the data were processed

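The authors sequenced poly(A)-selected, strand-specific libraries of 12 samples, aligned the reads with STAR 2.5.3a to GRCh38.p10, and counted fragments per GENCODE 27 gene over the union of exons without strand. The deposited values are raw counts of each library, with no normalization. Positions, exon lengths and overlaps were taken from GENCODE 29, also on GRCh38, in which 58084 of 58347 genes matched, and levels per kb use these lengths. Groups came from the sample labels. The members and gene lists were chosen with earlier results of these data known. Genes were filtered with filterByExpr and scaled by TMM, and a quasi-likelihood model with a term per group was fitted to all 12 samples in edgeR 4.0.16 (R 4.3.3), with p-values adjusted by Benjamini-Hochberg over all 16740 tested genes (threshold 0.05). SEs were derived from each log2 fold change and its F statistic (absolute change over root F). DESeq2 1.42.0 with and without a beta prior, its size factors, total counts, other filters, the compared groups alone, a replicate block and each library left out were alternatives. Counting intervals and floors (3 counts per library) cover counting error only. Near-identical stretches were found with blastn 2.17.0, other steps with Python 3.11.15. The fits were checked on simulated data. Genes named in the text are the 8 with the highest level per kb, the 5 largest rises and falls with vemurafenib and with the combination among called members whose groups did not overlap, and up to 5 with the smallest adjusted p in the tretinoin, combination against vemurafenib and interaction tests. In the other lists they are up to 3 rises and 3 falls in the combination, with SLBP, NPAT and CASP8AP2. Members named for an overlap, a copy, a pair or a missed call, and HIST1H2AC, HIST1H2BI, HIST1H3E, HIST1H2BL, HIST1H2AI and HIST1H2AH, were chosen after their values were seen.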

Additional observations from a re-analysis of the deposited data

Results flagged for a closer look

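The effect of vemurafenib differed between cells without and with tretinoin for 2 members, by the interaction term of the edgeR model. HIST1H1B had an interaction of -3.74 on the log2 scale (adjusted p = 0.0069). Its log2 fold change was 3.89 for vemurafenib against DMSO and 0.15 for the combination against tretinoin. Tretinoin alone gave 3.68, and the combination against vemurafenib gave -0.06. HIST1H3B had an interaction of -2.11 (adjusted p = 0.044), with tretinoin alone at 2.49, vemurafenib at 3.29 and the combination at 3.67. Without replicate 1 of tretinoin the interactions were -4.11 and -2.43. Both rest on DMSO libraries with 2 to 9 counts per gene. Groups of 3 libraries were not tested for outlying samples.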

How the results depend on the processing

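Directions did not change under any alternative for the counts or the summed levels. With at least 10 counts in every library, where 20 members are tested, 17 members rose with vemurafenib, 18 with the combination and 7 with tretinoin, and none had a negative interaction, since HIST1H1B and HIST1H3B are then not tested. Of all 13746 genes in that fit, 3895, 3956 and 507 rose. Fitting the compared groups alone gave 4 members for tretinoin, of 39 tested, and 234 of 15163 genes. Without a filter 21 members were higher in the combination than in tretinoin and 20 had a negative interaction. Over all 41806 genes in that fit these counts were 4110 and 221. Using total counts alone shifts the median of all genes by 0.21 for vemurafenib and 0.19 for the combination. It gave 19 members, and 5051 of 16740 genes, higher in the combination than in tretinoin. The summed log2 ratios were then 1.52 and 1.71. DESeq2 without shrinkage gave 5 negative interactions. The replicate block gave 1 negative interaction (HIST1H1B) and 19 calls for tretinoin, where 429 of 16740 genes were higher. It moved no other count of member calls by over 1.5 times. Same-numbered libraries did not deviate together (mean r = -0.03, from -0.14 to 0.09 over 18 pairs), so the main fit did not pair them. Whether the numbers mark shared cultures or batches cannot be told from these values. Leaving out 1 library gave 6 to 40 members for tretinoin, 44 to 47 for vemurafenib, 46 to 48 for the combination, 0 to 2 for the combination above vemurafenib, 8 to 20 above tretinoin, and 1 to 19 negative interactions, with 19 without tretinoin replicate 1. Counting identical copies once, chosen after seeing the data, gave summed log2 ratios of 0.91, 1.33 and 1.51. Of the named members, HIST1H2BK lost its call with vemurafenib in 5 alternatives, and none lost it with the combination.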
